A study of Mus musculus with 8 samples.

Results

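The genes described here are 7 of the 41388 in the deposited tables: Fcgr1, Fcgr3 and Fcgr4, which encode activating receptors for the Fc part of IgG, Fcgr2b, which encodes the inhibitory one, Fcer1g, which encodes their shared signalling chain, Fcgrt, which encodes the heavy chain of the neonatal Fc receptor, and Syk, the kinase that the signalling chain recruits. They were chosen by name, through the annotation of their Ensembl identifiers, and with earlier results of these data known. All 7 passed the filter on low counts that left 13933 genes. RNA was sequenced from macrophages of the epididymal fat pad (eWAT) of 4 MitoFat mice, all male and fed chow. The MitoFat strain reports the mitochondria of adipocytes. The sources used here do not state the age of the mice, what drives the reporter or how many cells were sorted. The sources used here separate the replicates by mouse alone. The model takes out the level of each mouse, so p-values measure how the difference between the sorted populations varied over these 4 mice. In each mouse, live cells positive for CD45, F4/80 and CD64 were sorted into those with the adipocyte reporter (mtD2+) and those without it (mtD2-), so that the 8 libraries form 4 pairs and all share the strain, sex, diet, tissue and surface gate. The design asks how macrophages that have received mitochondria from adipocytes differ from those that have not.

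Fc gamma receptors are how a macrophage senses antibody on a particle. The activating receptors bind IgG but carry no signalling motif of their own in the mouse. They sit beside a dimer of the Fc receptor gamma chain (the product of Fcer1g), whose immunoreceptor tyrosine-based activation motif (ITAM) is phosphorylated by Src family kinases and then binds Syk, which starts phagocytosis and cytokine release. The inhibitory receptor Fcgr2b carries the opposite motif (ITIM), which recruits lipid and protein phosphatases, and the balance between both kinds sets the response of macrophages to immune complexes. The neonatal receptor works apart from this pathway, inside endosomes, where it saves IgG and albumin from breakdown.

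The tables held 18462287 to 27464399 gene-assigned counts per library. Levels are CPM, counts brought to a common library size with TMM factors, which set each library by the bulk of its tested genes. Log2 fold changes put mtD2+ over mtD2- and come from a paired edgeR model, and calls rest on an adjusted p (Benjamini-Hochberg) under 0.05. The mtD2- library of mouse 4 stood farthest from the others of its group (first principal component −49.7, against −30.3 to −8.8). The 11 macrophage markers other than Fcgr1 were all present and summed to 14840 to 18800 CPM in mtD2+, lower in each mouse than the 18490 to 22450 CPM in mtD2-. Of these, 2 were called lower, C1qb (log2 −0.47, adjusted p = 0.0381) and Adgre1 (F4/80), which also set the gate and had 421 to 511 CPM in mtD2+ and 583 to 800.2 in mtD2- (−0.55, adjusted p = 0.0336). Mertk was called higher (log2 0.51, adjusted p = 0.0341), and Ptprc and Cd68 stood at 0.02 and 0.16.

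Among the Fc receptor genes, Fcgr4 and Fcer1g fell in macrophages with adipocyte mitochondria, while the inhibitory Fcgr2b had nearly equal means. Fcgr4 averaged 27.6 ± 4.63 CPM in mtD2+ and 51.0 ± 11.04 in mtD2-, and Fcer1g 1038 ± 167 CPM in mtD2+ and 1403 ± 156 in mtD2- (SD, n = 4 mice each). The other activating receptors, Fcgr1 and Fcgr3, were also lower in mtD2+ in each of the 4 mice but did not pass the test. In sorted bulk populations fewer cells of a type and less RNA per cell cannot be told apart. Of the 7 genes, 2 were called lower and 0 higher, where 1.78% of the tested genes were called lower, 3.72% higher and 5.5% in either direction. At an unadjusted p under 0.05 edgeR passed 4 of them, all lower, and 11.0% of all tested genes in that direction. The mtD2+ libraries all lay below the mtD2- libraries for 3 of the 7, as they did for 6.01% of the tested genes, and 4 were lower in 4 of 4 mice, against 16.1% of the tested genes. The median log2 fold change was −0.35 over the 7 genes and −0.001 over all tested genes. Over all genes 519 were called higher and 248 lower, a split that became 407 and 349 when library totals replaced the TMM factors.

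**Figure D1:**
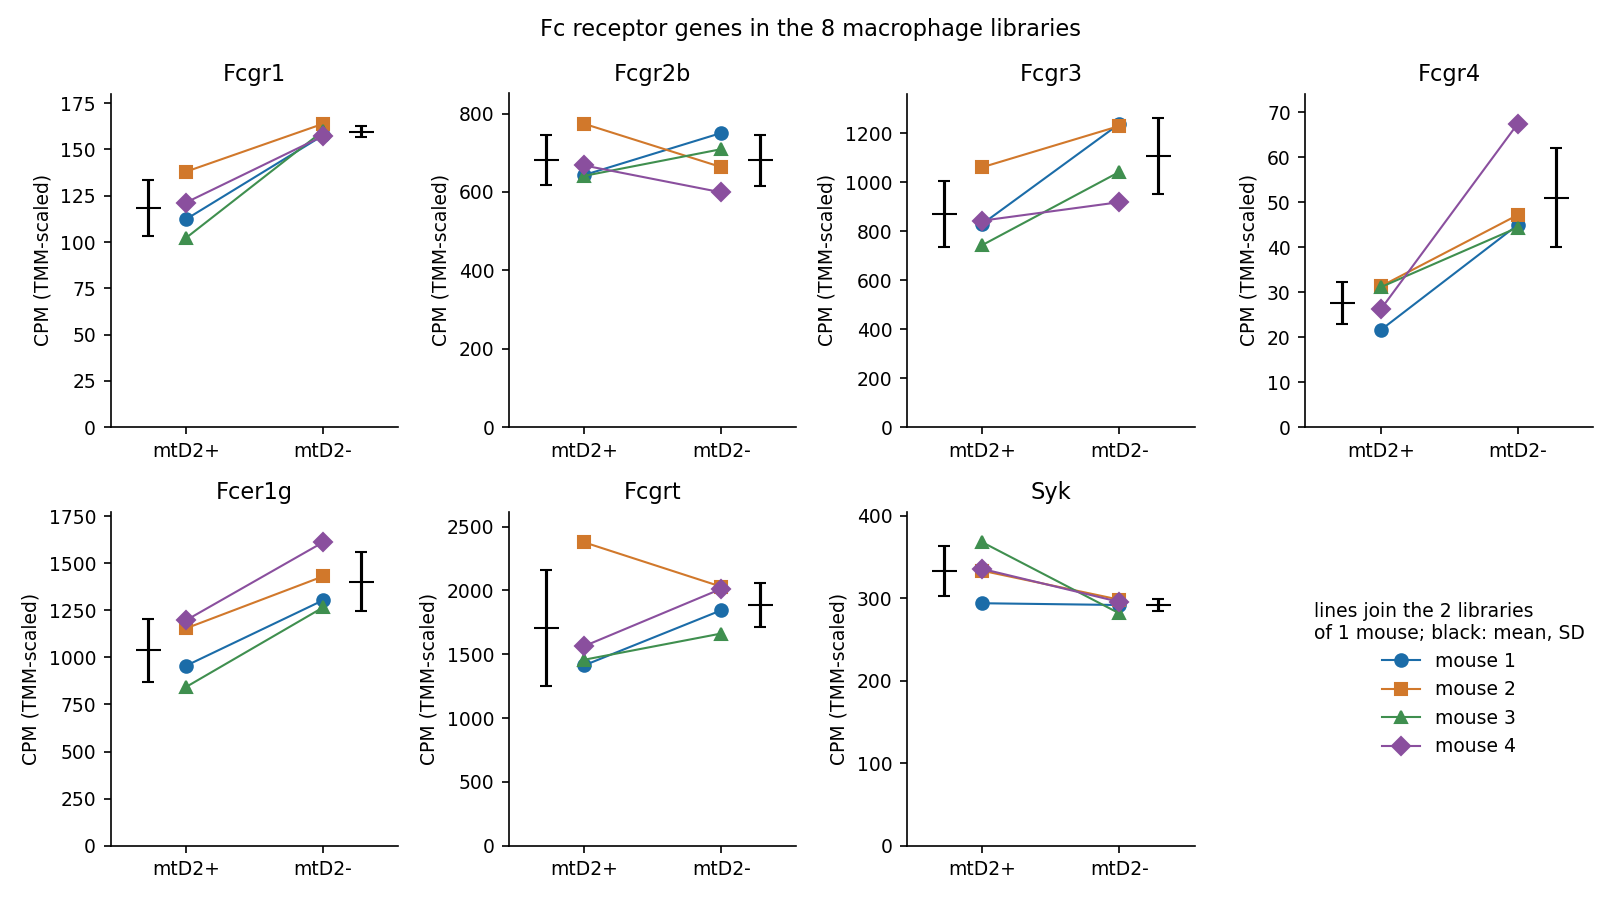
TMM-scaled CPM (y axis, from 0) of the 7 genes in the mtD2+ and mtD2- libraries, with a line joining the libraries of each mouse and black bars for the group mean and SD. For Fcgr1, Fcgr4 and Fcer1g all mtD2+ points lie under all mtD2- points, and for Fcgr2b the lines cross.

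Fcer1g (ENSMUSG00000058715, GRCm38 chromosome 1, 171229572 to 171234365, minus strand) encodes the gamma chain that all 3 activating IgG receptors, and several lectin receptors, use to signal. It had 956, 1154, 843 and 1197 CPM in the mtD2+ libraries of mice 1 to 4, against 1303, 1430.4, 1265 and 1612 CPM in their mtD2- libraries. Mouse 4 was the highest in both groups, mouse 3 the lowest in both, and the groups did not overlap. Fcer1g fell by 26.4%, a log2 fold change of −0.44 (SE 0.10, edgeR adjusted p = 0.0404), on 19028 to 31112 counts per library in mtD2+ and 30090 to 37831 in mtD2-. The call was lost without the mouse block (adjusted p = 0.181) and on leaving out any 1 mouse (log2 −0.49 to −0.39, adjusted p 0.0502 to 0.208).

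The motif through which this chain signals lies in its short tail, and the matching inhibitory motif in the tail of Fcgr2b, so the coding stretches of both are shown, read from GENCODE M21 transcripts with the codons of the tyrosines that are phosphorylated in capitals. The Fcer1g stretch codes for residues 65 to 79 of 86 and is spliced from 2 exons within chr1:171229889-171230072, minus strand. The Fcgr2b stretch codes for residues 317 to 322 of 340 and lies at chr1:170961071-170961088, minus strand.
Fcer1g ITAM: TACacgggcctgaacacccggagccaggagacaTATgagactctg
Fcgr2b ITIM: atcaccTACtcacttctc
The spaced pair of tyrosine codons that makes an ITAM was found in the principal coding sequence of Fcer1g and in none of Fcgr1, Fcgr3 and Fcgr4. By letters alone the looser ITIM pattern also matched 3 stretches of Fcgr1 and 1 each of Fcgr4, Fcer1g and Fcgrt, none of which is known as an ITIM. The libraries thus had less RNA for the chain that holds the first motif, and close to equal RNA for the receptor that holds the second.

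Fcgr4 (ENSMUSG00000059089, chromosome 1, 171018920 to 171029761, plus strand) encodes an activating receptor that in the mouse binds IgG2a and IgG2b. It had 21.6, 31.3, 31.1 and 26.2 CPM in the mtD2+ libraries of mice 1 to 4, against 44.99, 47.2, 44.4 and 67.5 CPM in the mtD2- libraries. All mtD2+ values lay under all mtD2- values, and the mtD2- library of mouse 4 stood above the other 3, which were close together. Fcgr4 fell by 45.6% (log2 −0.88, SE 0.17, edgeR adjusted p = 0.0235), the largest change of the 7 genes and the one with the fewest counts (463 to 844 in mtD2+, 1056 to 1467 in mtD2-). The log2 ratios of mice 1 to 4 were −1.04, −0.58, −0.51 and −1.35. Without mouse 4 the fold change was −0.72 (adjusted p = 0.0632), and leaving out any other mouse also ended the call (−1.0 to −0.82, adjusted p 0.0604 to 0.111).

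Fcgr1 (ENSMUSG00000015947, chromosome 3, 96282909 to 96293969, minus strand) encodes CD64, the high-affinity IgG receptor. Its protein was also a gate of the sort, so that every cell of both groups had been selected for it. It had 112, 138, 102 and 121 CPM in the mtD2+ libraries of mice 1 to 4, against 158, 164, 159.9 and 157 CPM in the mtD2- libraries. The mtD2- values lay within a coefficient of variation of 1.91%, the mtD2+ values spread over 12.8%, and the groups did not overlap. The log2 fold change was −0.44 (SE 0.11, edgeR adjusted p = 0.0554), as large as that of Fcer1g and just outside the threshold. DESeq2 and limma voom did call it (adjusted p = 0.00963 and 0.0354).

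Fcgr3 (ENSMUSG00000059498, chromosome 1, 171051174 to 171064935, minus strand) encodes CD16, the low-affinity activating receptor. It had 829.6, 1061, 743 and 843 CPM in the mtD2+ libraries of mice 1 to 4, against 1238, 1229, 1041 and 918 CPM in the mtD2- libraries. Each mouse had less in mtD2+, but the groups overlapped, since mouse 2 was high in mtD2+ and mouse 4 low in mtD2-. The log2 fold change was −0.35 (SE 0.11, edgeR adjusted p = 0.113), with ratios of −0.58, −0.21, −0.49 and −0.12 in mice 1 to 4. DESeq2 called it (adjusted p = 0.0286), and by DESeq2 4 of the 7 genes were called lower, where that test called 4.98% of its genes lower. limma voom called 3 of the 7 lower and 2.67% of all genes.

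Fcgr2b (ENSMUSG00000026656, chromosome 1, 170960558 to 170976547, minus strand) encodes the inhibitory receptor. It had 643, 774, 641 and 668 CPM in the mtD2+ libraries of mice 1 to 4, against 750.3, 663, 709 and 599 CPM in the mtD2- libraries. It was lower in mtD2+ in mice 1 and 3 and higher in mice 2 and 4, and the groups overlapped over most of their range. The log2 fold change was 0.00 (95% interval −0.26 to 0.26, edgeR adjusted p = 0.992), so that the interval leaves room for changes of up to 0.26 in either direction. Its sign turned to −0.05 with library totals and to −0.07 and −0.05 without mouse 2 and mouse 4. Fcgr2b and Fcgr3 have near-identical outer domains: 9.58% of the 50-base words of the Fcgr3 transcripts also occur in Fcgr2b, and 2.92% the other way. No source used here says how reads from those stretches were assigned, and both levels are uncertain to that extent.

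Syk (ENSMUSG00000021457, chromosome 13, 52583173 to 52648792, plus strand) encodes the kinase that docks on the ITAM. It had 294, 333, 368 and 336 CPM in the mtD2+ libraries of mice 1 to 4, against 292, 298, 282 and 296 CPM in the mtD2- libraries. Mouse 1 had nearly the same level in both populations, the other 3 mice had more in mtD2+, and the mtD2- libraries had a coefficient of variation of 2.49%. The log2 fold change was 0.18 (95% interval −0.06 to 0.43, edgeR adjusted p = 0.342), and no model run called it.

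Fcgrt (ENSMUSG00000003420, chromosome 7, 45092993 to 45103822, minus strand) encodes the heavy chain of the neonatal receptor, which pairs with B2m. It had 1413, 2377, 1457 and 1564 CPM in the mtD2+ libraries of mice 1 to 4, against 1844, 2029.5, 1662 and 2012.5 CPM in the mtD2- libraries. Mouse 2 was the highest in mtD2+, above every mtD2- library, and the other 3 mice were lower in mtD2+ than in mtD2-. The log2 fold change was −0.18 (95% interval −0.46 to 0.11, edgeR adjusted p = 0.443), or −0.31 without mouse 2 (adjusted p = 0.164). Its ratio to B2m per kilobase was 0.249 ± 0.0655 in mtD2+ and 0.237 ± 0.0424 in mtD2- (SD, n = 4).

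**Figure D2:**
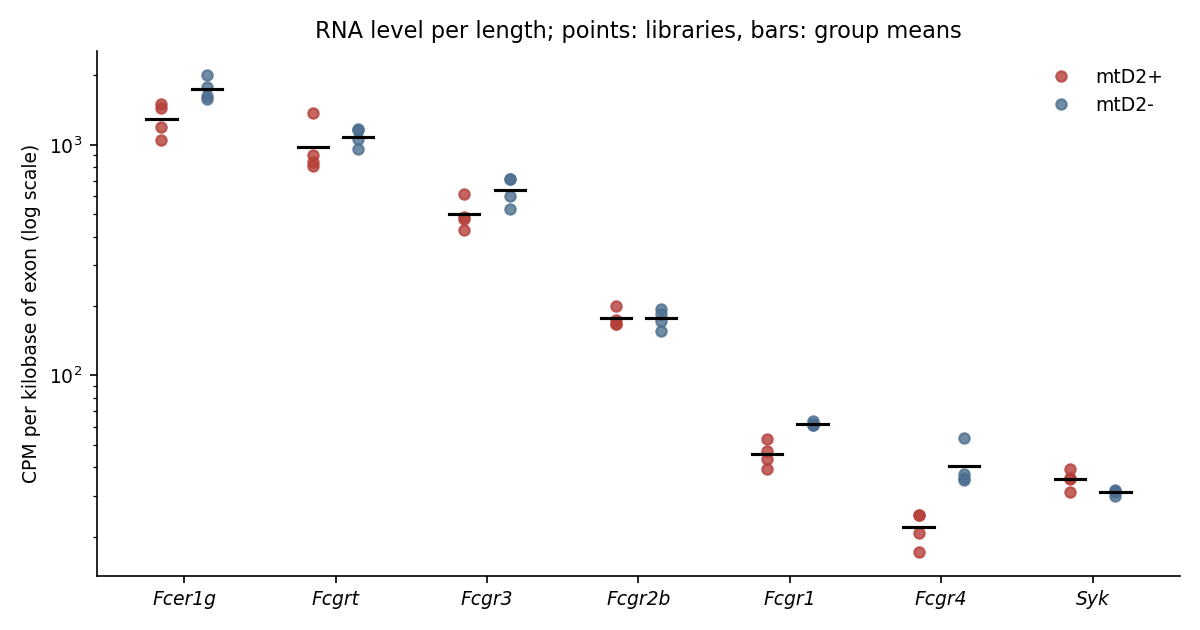
CPM per kilobase of exon (log y axis) of each gene in the mtD2+ and mtD2- libraries, points for libraries and bars for group means, ordered by the mtD2- mean. Fcer1g is highest at 1297 in mtD2+ and 1753 in mtD2-, and Fcgr4 and Syk change places between the populations.

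Per kilobase of exon, Fcer1g was the most abundant of the 7 genes, at 1297 ± 209 CPM per kilobase in mtD2+ and 1753 ± 195 in mtD2- (SD, n = 4). It stood at percentile 99.7 of the tested genes in mtD2+ and 99.8 in mtD2-. Fcgrt followed with 979.6 ± 261 in mtD2+ and 1086 ± 98.8 in mtD2-, and the ranges of Fcer1g and Fcgrt overlapped in mtD2+ (1054 to 1497 against 813 to 1368) but not in mtD2-. Fcgr3 had 501 ± 77.9 CPM per kilobase in mtD2+ and 637 ± 89.2 in mtD2-, and Fcgr2b 177 ± 16.3 in mtD2+ and 177 ± 16.9 in mtD2-, each clear of its neighbours in both populations. Then came Fcgr1 with 45.7 ± 5.87 in mtD2+ and 61.7 ± 1.18 in mtD2-. Fcgr4 had 21.9 ± 3.68 CPM per kilobase in mtD2+ and 40.6 ± 8.79 in mtD2-, and Syk 35.5 ± 3.23 in mtD2+ and 31.2 ± 0.778 in mtD2-. Every Syk value lay above every Fcgr4 value in mtD2+ and below every one in mtD2-. Of the RNA of the 3 activating receptors per kilobase, Fcgr3 made up 86.9 to 88.8% in mtD2+ and 82.2 to 88.1% in mtD2-, so their sum mostly follows Fcgr3.

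The ratio of activating to inhibitory receptor RNA does not depend on the scaling between libraries, since both parts come from the same library. Per kilobase, the sum of Fcgr1, Fcgr3 and Fcgr4 over Fcgr2b was 3.22, 3.43, 2.96 and 3.19 in the mtD2+ libraries of mice 1 to 4, against 4.15, 4.69, 3.78 and 4.13 in the mtD2- libraries. The groups did not overlap, and the log2 ratio of the populations was −0.37, −0.45, −0.36 and −0.37 in the 4 mice, a mean of −0.39 with an SD of 0.04. Fcgr3 over Fcgr2b alone gave a mean of −0.35 (SD 0.06), Fcgr1 over Fcgr2b −0.44 (SD 0.12) and Fcgr4 over Fcgr2b −0.88 (SD 0.48). These ratios are combinations of genes chosen by name, with earlier results of these data known, and are given without a test.

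Other ratios set the gamma chain against the receptors that need it and against its kinase. Fcer1g over the sum of the activating receptors was 2.29 ± 0.283 in mtD2+ and 2.41 ± 0.496 in mtD2- (SD, n = 4), lower in 3 of 4 mice, with overlapping groups. Against Tyrobp (DAP12), the other ITAM chain of macrophages, Fcer1g was at 1.04 ± 0.0336 in mtD2+ and 1.22 ± 0.0374 in mtD2-, lower in 4 of 4 mice and with no overlap. Syk over Fcer1g was 0.0281 ± 0.00624 in mtD2+ and 0.0179 ± 0.00161 in mtD2-, and it was higher in every one of the 4 mice. The leukocyte gene Ptprc (CD45) served as a common divisor. The mean log2 ratio of mtD2+ over mtD2- was then −0.46 for Fcgr1 and for Fcer1g, −0.37 for Fcgr3 and −0.90 for Fcgr4. It was −0.20 for Fcgrt, −0.02 for Fcgr2b and 0.17 for Syk. By this divisor Fcgr1, Fcgr3, Fcgr4 and Fcer1g were lower in 4 of 4 mice, but the groups overlapped for every gene except Fcgr4. With Adgre1 (F4/80), another gate of the sort, as divisor, Fcgr1 was lower in 2 of 4 mice, with a mean log2 ratio of 0.11, since Adgre1 was lower in mtD2+ too.

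**Figure D3:**
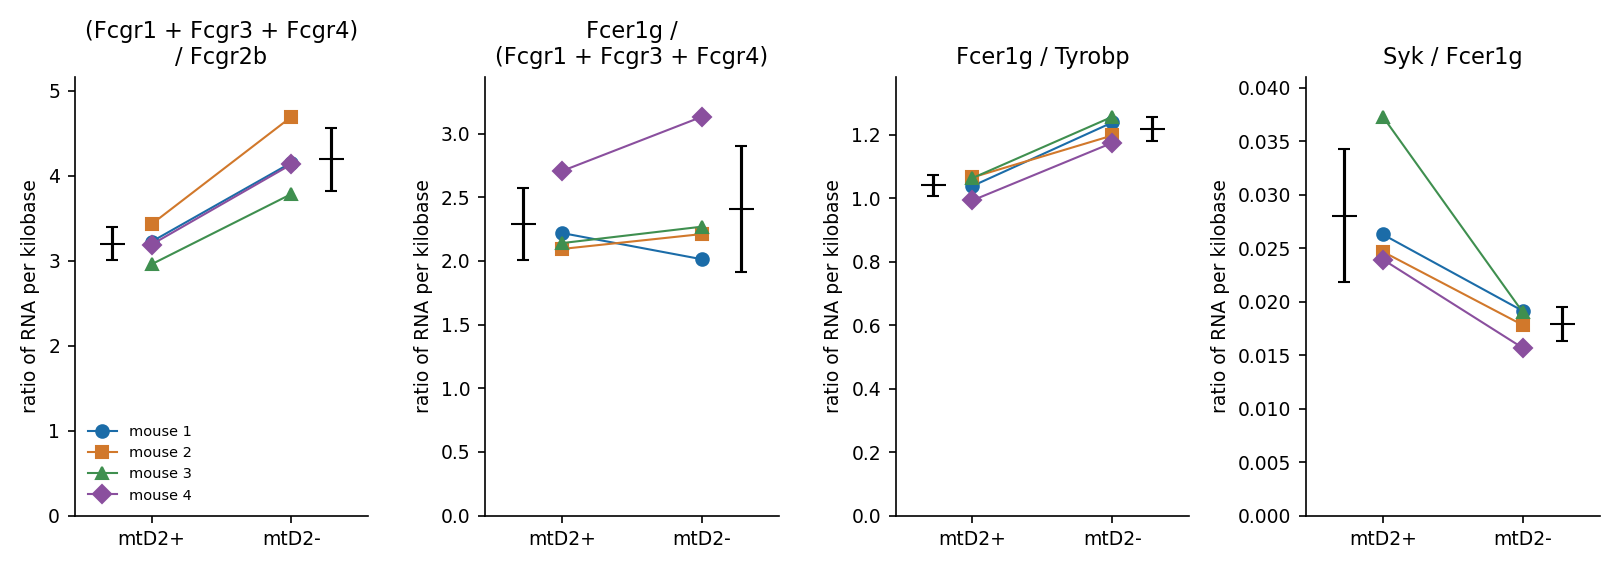
Ratios of RNA per kilobase (y axis, from 0) in the mtD2+ and mtD2- libraries, with a line for each mouse and the group mean and SD in black. The activating to inhibitory ratio lies between 2.96 and 3.43 in mtD2+ and between 3.78 and 4.69 in mtD2-, while Fcer1g over the activating receptors overlaps.

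Fcgr2b, Fcgr4, Fcgr3 and Fcer1g lie in this order within 273.8 kilobases of chromosome 1, with gaps of 42.4, 21.4 and 165 kilobases. Their log2 fold changes along the chromosome were 0.00, −0.88, −0.35 and −0.44. No exon of the 7 genes overlaps an exon of another gene, although Mir6546 lies within the span of Fcgr3 and Gm26110 within that of Fcgr4. The promoter windows of the 3 genes whose groups did not overlap are shown, with that of Fcgr2b, the inhibitory receptor, for comparison. They run from 250 bases before to 50 after the RefSeq start on GRCm38.p6 and are read along the gene. Capitals mark, on either strand, the PU.1 core GAGGAA, the STAT site TTCNNNGAA and the interferon element core (GAAA, any 2 bases, GAAA). None of these matches overlaps another.
Fcgr1, chr3:96293920-96294219, minus strand: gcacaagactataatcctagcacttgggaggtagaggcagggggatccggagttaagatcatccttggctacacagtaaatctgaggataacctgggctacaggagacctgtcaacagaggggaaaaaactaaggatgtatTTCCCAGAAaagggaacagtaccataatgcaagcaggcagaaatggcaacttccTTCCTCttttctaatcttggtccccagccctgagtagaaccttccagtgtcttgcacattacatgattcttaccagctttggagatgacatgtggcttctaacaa
Fcgr4, chr1:171018676-171018975, plus strand: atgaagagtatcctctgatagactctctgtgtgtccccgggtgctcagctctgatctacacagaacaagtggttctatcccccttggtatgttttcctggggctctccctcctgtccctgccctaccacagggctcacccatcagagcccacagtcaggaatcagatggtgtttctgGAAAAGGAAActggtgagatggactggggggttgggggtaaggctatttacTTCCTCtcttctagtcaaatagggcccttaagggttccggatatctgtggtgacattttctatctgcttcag
Fcer1g, chr1:171234300-171234599, minus strand: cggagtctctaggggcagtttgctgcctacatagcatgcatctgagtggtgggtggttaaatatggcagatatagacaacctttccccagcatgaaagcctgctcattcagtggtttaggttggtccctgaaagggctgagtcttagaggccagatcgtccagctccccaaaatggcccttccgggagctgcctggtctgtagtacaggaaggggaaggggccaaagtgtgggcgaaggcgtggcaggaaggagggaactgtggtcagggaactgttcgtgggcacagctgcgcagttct
Fcgr2b, chr1:170976022-170976321, minus strand: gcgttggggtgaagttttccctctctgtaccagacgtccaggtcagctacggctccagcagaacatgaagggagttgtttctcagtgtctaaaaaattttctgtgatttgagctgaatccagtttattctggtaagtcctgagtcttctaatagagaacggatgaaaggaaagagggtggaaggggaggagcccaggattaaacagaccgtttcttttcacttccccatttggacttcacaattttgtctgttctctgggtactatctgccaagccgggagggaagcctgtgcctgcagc
PU.1 is the ETS factor that directs myeloid genes. Its core was found in the windows of Fcgr1 (bases −55 to −50 from the start), Fcgr4 (−22 to −17) and both Fcgr3 windows, and in 1 of the 2 Syk windows, but not in those of Fcer1g, Fcgr2b and Fcgrt. Of all 32851 promoter windows, 28.3% hold it. The STAT site occurred in Fcgr1 alone among the 7 genes (−109 to −101; 8.3% of all windows) and the interferon element core in Fcgr4 alone (−73 to −64; 3.44%). A match is a run of letters in a window of 300 bases, and binding was not measured.

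Around these genes, 7 companion lists of the pathway held 129 genes, of which 112 were tested, and 11 were called lower and 4 higher. The most calls, 6 of 21 tested and all lower, were in the list of genes that restrain Syk signalling. The phosphatases and ubiquitin ligases of that list were not called. Log2 fold changes had both signs among these enzymes and among the ITIM receptors alike. Over the 21 tested genes of the list 13 were negative and 8 positive, from −0.70 to 0.35. The gene groups are described by their counts and medians, to be read against 1.78% and 3.72% of all tested genes. They too were chosen with earlier results of these data known.

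Of 8 tested Src family kinases and their regulators, the enzymes that phosphorylate the ITAM, edgeR called 0 after adjustment and passed 2, both lower, at an unadjusted p under 0.05 (11.0% of all tested genes), while DESeq2 called 2 lower (4.98% of its genes). The median log2 fold change was −0.10. Csk, which switches these kinases off, averaged 81.7 ± 7.34 CPM in mtD2+ and 112 ± 20.95 in mtD2- (a log2 change of −0.44, adjusted p = 0.0784). Lyn, the most abundant by CPM of those named, had 247 ± 19.3 CPM in mtD2+ and 288 ± 21.5 in mtD2- (−0.22, adjusted p = 0.228). Fyn stood at −0.96 and Src at 1.07 on the log2 scale (adjusted p = 0.0802 and 0.515). Src averaged only 2.05 CPM in mtD2+ and 1.65 in mtD2-, and its log2 fold change ran from 0.28 to 1.87 on leaving out each mouse.

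Of 30 adaptors, kinases and lipid enzymes listed around Syk signalling, 2 rose and 1 fell (median 0.08). Blnk, an adaptor that brings Btk and Plcg2 to Syk, rose to 215 ± 36.8 CPM in mtD2+, against 152 ± 18.2 in mtD2- (a log2 change of 0.50, SE 0.10, adjusted p = 0.0286). Vav2, a guanine nucleotide exchange factor, rose 0.48 (SE 0.12, adjusted p = 0.0486). Lat2, a membrane adaptor of ITAM receptors, fell to 77.4 ± 20.5 CPM in mtD2+, against 115 ± 15.8 in mtD2- (−0.60, SE 0.13, adjusted p = 0.0296). Sos1, an exchange factor for Ras, stood at 0.65 and Pik3r5, a subunit of phosphoinositide 3-kinase gamma, at 0.39 on the log2 scale (adjusted p = 0.0545 and 0.149). Blnk and Vav2 lost their calls with library totals, where no gene of this list was called higher, and without any 1 mouse, and Lat2 lost its call without mouse 1, 2 or 3 (−0.71 to −0.51). All 3 lost them without the block.

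Among 16 tested receptors and chains that signal through an ITAM, 13 had a negative log2 fold change and 0 of these were called, while 1 gene rose (median −0.40). At an unadjusted p under 0.05 edgeR passed 4 of the 13, where 11.0% of all tested genes passed as lower, and DESeq2 called 4 of the list lower after adjustment, where it called 4.98% of its genes lower. The gene that rose was Clec4e (Mincle), a lectin that pairs with the Fc receptor gamma chain, with 447, 195, 197 and 251 CPM in mtD2+ against 247, 69.6, 74.7 and 193 CPM in mtD2- (a log2 change of 1.03, SE 0.18, adjusted p = 0.016). Its groups overlapped through the mtD2- library of mouse 1, and its call was lost without the block and without mouse 1, 2 or 3 (0.88 to 1.25). Clec4n (Dectin-2), a partner of the same chain, stood at −0.47, Clec7a (Dectin-1), which carries its own tyrosine motif, at −0.41, and Cd300lb and Pilrb1, partners of DAP12, at −0.42 and −0.46 (adjusted p 0.0603 to 0.0997). Of 14 other Fc receptors and Fc-binding partners, 4 were tested and edgeR called 0 of them, with 0 at an unadjusted p under 0.05 and 0 by DESeq2. B2m, the light chain that Fcgrt needs, had 3411 ± 504 CPM in mtD2+ and 4035 ± 822 in mtD2- (a log2 change of −0.23, adjusted p = 0.224), and Fcrls, a scavenger-like Fc receptor relative, 575 ± 84.9 in mtD2+ and 674 ± 44.3 in mtD2- (−0.24, adjusted p = 0.233). Trim21, the intracellular Fc receptor, and Fcrl1 averaged 2.86 and 1.12 CPM in mtD2+, against 3.98 and 1.551 CPM in mtD2-.

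The 6 genes of the restraining list that fell (median −0.27 over 21 tested) included Siglece, a sialic acid receptor with an ITIM, at 60.6 ± 2.26 CPM in mtD2+ and 99.1 ± 9.36 in mtD2- (a log2 change of −0.70, SE 0.12, adjusted p = 0.0127). Pilra, an ITIM receptor and the inhibitory partner of Pilrb1, fell by 0.69 (adjusted p = 0.0181), the lectins Clec4a2 and Clec12a by 0.54 and 0.52 (adjusted p = 0.0208 and 0.0292), and Cd72 by 0.59 on the log2 scale (adjusted p = 0.031). Siglece and Pilra kept their calls without the block (adjusted p = 0.0184 and 0.0297), and the others named lost theirs. On leaving out mice in turn the list had 0 to 6 calls, and each of the 5 genes lost its call without mouse 1 and without mouse 3. The paired Pilra and Pilrb1 and the Clec4a lectins belong to multigene families whose reads may be split among copies.

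Of 23 genes of actin and membrane remodelling at the phagocytic cup, 3 fell and 0 rose (median −0.17). Coro1a, an actin-binding protein of leukocytes, averaged 483 ± 80.3 CPM in mtD2+ and 719 ± 147 in mtD2- (a log2 change of −0.57, SE 0.10, adjusted p = 0.0164). Arpc2, a subunit of the Arp2/3 complex that branches actin, had 362 ± 15.7 CPM in mtD2+ and 533 ± 77.3 in mtD2- (−0.55, SE 0.11, adjusted p = 0.0292). Gsn, the actin-severing gelsolin, which fibroblasts also make, had 392 to 667 CPM in mtD2+ and 967 to 1094 in the mtD2- libraries of mice 1 to 3, with 3269 in that of mouse 4 (−1.34, or −1.0 without mouse 4). The other Arp2/3 subunits Actr3 and Actr2 stood at −0.36 and −0.32 (adjusted p = 0.081 and 0.0991), with the groups not overlapping for either. All 3 called genes lost the call without the block and without mouse 1 or mouse 3.

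Of 10 complement receptors, which bind the other main opsonin, Vsig4 rose and Cd93 fell (median 0.12). Vsig4, a receptor for C3 fragments of resident macrophages, had 36.0, 58.4, 38.8 and 28.7 CPM in mtD2+ against 21.3, 21.97, 24.1 and 14.9 CPM in mtD2- (a log2 change of 0.95, SE 0.17, adjusted p = 0.016). Every mtD2+ library lay above every mtD2- library. Cd93, a C-type lectin-like receptor once taken for a C1q receptor, had 214 ± 16.5 CPM in mtD2+ and 319.6 ± 36.6 in mtD2- (−0.58, SE 0.12, adjusted p = 0.025). C3ar1 stood at 0.36, Itgb2, the beta chain of complement receptor 3, at 0.23 and Cr2 at 1.25 on the log2 scale, on a mean of 0.66 CPM of Cr2 in mtD2+ (adjusted p 0.101 to 0.479). Vsig4 and Cd93 both lost the call without the block and without mouse 1, 2 or 3.

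**Figure D4:**
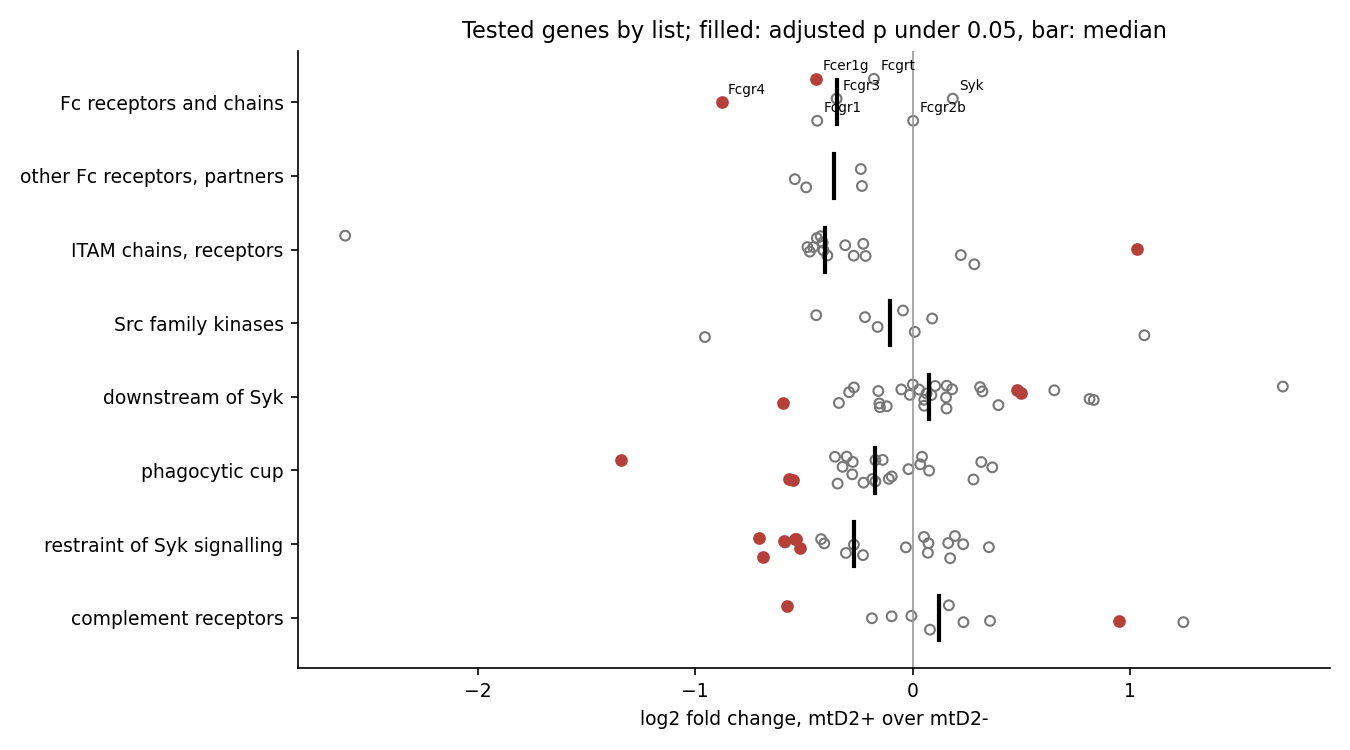
Log2 fold change, mtD2+ over mtD2- (x axis), of the tested genes of each list (rows), filled where the adjusted p was under 0.05, with a bar for the list's median. The Fc receptor genes lie from −0.88 (Fcgr4) to 0.18 (Syk), and all 6 filled points of the restraining list lie below 0.

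Over the 8 libraries, the genes with the most similar pattern were found by Pearson's r of log2 CPM among genes with a mean of at least 20 CPM. For Fcgr1 they were Cnih1, Smpdl3b and Tmed10 (r = 0.984, 0.983 and 0.982), of which Smpdl3b fell in mtD2+ (log2 −1.05, adjusted p = 0.00813). For Fcer1g they were Commd6, Ly86 and Sdhb (0.988, 0.985 and 0.984), for Fcgr3 Selenof, Pdia6 and Znhit1 (0.979, 0.975 and 0.955). For Fcgr4 they were Prelid1, Bgn and Creb3 (0.995, 0.976 and 0.97), all 3 of which fell. For Fcgr2b they were Maml2, Spop and Acadm (0.944, 0.906 and 0.901), for Fcgrt Cbr2, Tnfaip8l2 and Fam234a (0.961, 0.937 and 0.934), and for Syk Siglec1, Arfgap3 and Ehmt1 (0.941, 0.919 and 0.913). The 8 points share the mice, the scaling and the difference between the populations, and the values describe these libraries.

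Markers of other cells that carry Fc receptors were present at unequal levels. The 9 neutrophil markers, from cells that make Fcgr3 and Fcgr4, summed to 70.8 to 123 CPM in mtD2+ and 57.1 to 79.2 in mtD2-, with Ly6g at 0 in all 8 libraries and 4 of the 9 under 1 CPM in every one. Csf3r carried most of this sum (70.4 to 81.3 CPM in mtD2+ and 56.9 to 78.7 in mtD2-), and in the mtD2+ library of mouse 4 Ngp and S100a8 added 18.8 and 10.5 CPM. Fcer1a, the IgE receptor chain that pairs with Fcer1g in mast cells and basophils, was at 0 in all libraries as well, and their 9 markers summed to 0.797 to 12.5 CPM in mtD2+ and 0.874 to 4.29 in mtD2-. The 8 NK cell markers summed to 0.775 to 3.59 CPM in mtD2+ and 0.715 to 5.22 in mtD2-. The 8 dendritic cell markers summed to 250.1 to 287.3 CPM in mtD2+ and 171.4 to 267.0 in mtD2-, with 0 called. This sum was higher in mtD2+ in 3 of 4 mice, and Cd209a and Siglech carried most of it. The 9 monocyte markers, from cells that can carry Fcgr4, summed to 961.5 to 1320 CPM in mtD2+ and 805 to 1557 in mtD2-, with 1 of 9, Ccr2, called lower (261 to 370.4 CPM in mtD2+ and 476 to 611 in mtD2-). Nr4a1 carried most of the rest and was not called (684 to 997 CPM in mtD2+ and 308 to 986 in mtD2-, log2 0.56, adjusted p = 0.121). The 8 B cell markers summed to 527 to 806 CPM in mtD2+ and 742.5 to 822 in mtD2-, and Cd79b, which was called lower, had 16.3 to 24.4 CPM in mtD2+ and 28.3 to 54.3 in mtD2-. The part of these cells in the Fc receptor values was not tested.

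The 10 fibroblast and adipocyte precursor markers, from cells outside the gate, summed to 221 to 285 CPM in mtD2+ and 818 to 1370.0 in mtD2-, with 7 of 10 called lower and none at 0. In mtD2-, mouse 4 was the highest in this sum and the highest in Fcgr4, and Bgn, a matrix proteoglycan, was among the genes most like Fcgr4. The 16 dissociation-responsive genes summed to 19300 to 21990 CPM in mtD2+ and 10710 to 22320 in mtD2-, with 6 called higher and that same library at 22320. The part of either in the Fc receptor values was not tested. Without mouse 4, Fcgr1, Fcgr3, Fcgr4 and Fcer1g had log2 fold changes of −0.46, −0.43, −0.72 and −0.45.

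**Figure D5:**
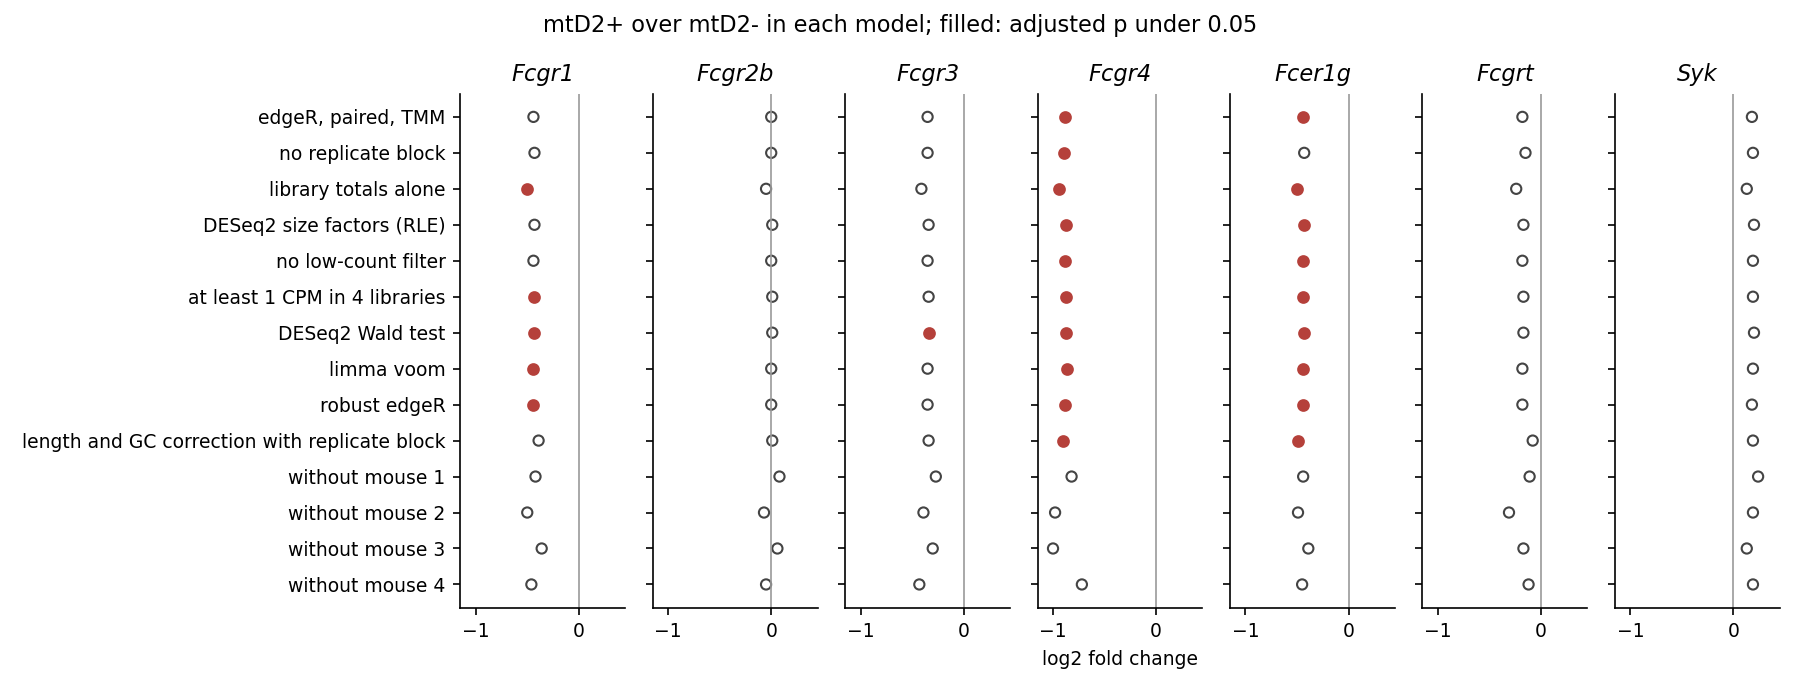
Log2 fold change, mtD2+ over mtD2- (x axis), of the 7 genes (panels) in the paired edgeR model and 13 alternatives (rows), filled where the adjusted p was under 0.05. Fcgr1, Fcgr3, Fcgr4 and Fcer1g stay below 0 in every row, Syk stays above 0, and no gene is filled where a mouse is left out.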

How the data were processed

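RNA was measured in 8 libraries, 4 mtD2+ and 4 mtD2-, grouped and paired by the mouse that the labels name. Per the labels' protocols, collagenase released the cells, and low-input kits (RNeasy Micro, SMARTer Ultra-Low) were used for RNA and libraries. The submitters' processing notes list, without roles or options, build GRCm38 and bcl2fastq, Subread, STAR 2.0.4b and featureCounts 1.45. No source used here states how strand or multi-mapped reads were handled. The authors deposited whole-number counts for 41388 genes, and a deposited CPM (count scaled to the library total) and a deposited RPKM (that CPM per kilobase) beside them. Both were checked against the counts and not used in tests. GENCODE M21 named 40340 genes and left 1048 unnamed.

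The test was edgeR's quasi-likelihood F test (version 4.0.16, R 4.3.3; TMM, mouse as block) on 13933 genes that passed filterByExpr (minimum count 10, minimum total 15, proportion 0.7), with Benjamini-Hochberg adjustment over all of them. SE is the fold change over the square root of F. It was first tested on simulated data. The deviations of a mouse's libraries from their group means correlated with r of 0.065, 0.09, 0.185 and 0.295 for mice 1 to 4, against at most 0.068, 0.031, 0.021 and −0.016 with other mice, so mouse 1 showed no pairing by this check. The pairing rests on the mouse that the labels name. Libraries of a group differed by 38.8 to 174.1 times the counting noise. Alternatives were the model without the block, 2 other scalings, 2 other filters, DESeq2 1.42.0, limma 3.58.1 (voom), robust edgeR, a length and GC correction and leaving out each mouse. The members and lists were chosen with earlier results of these data known. From each list the text names up to 5 genes of smallest p, and for each member the 3 most similar genes. Lilrb4a and Lilr4b were not analysed here. One gene that the naming rule gives is not reported here. An exact paired test of 4 mice cannot go below p = 0.125 and was not used.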

Additional observations from a re-analysis of the deposited data

Results flagged for a closer look

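Fcgr4 in the mtD2- libraries was flagged because mouse 4, at 67.47 CPM, stood apart from the other 3, at 44.4 to 47.2 CPM (Dixon's ratio 0.879, above the critical value for 4 samples). Fcgrt in the mtD2+ libraries was flagged because mouse 2, at 2377 CPM, stood apart from the other 3, at 1413 to 1564 CPM (ratio 0.844). Of 20 groups of 4 libraries examined these were 2, and chance flags about 1 in 20. Without mouse 4 the log2 fold change of Fcgr4 was −0.72, and without mouse 2 that of Fcgrt was −0.31.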

How the results depend on the processing

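Fcgr1, Fcgr3, Fcgr4, Fcer1g and Fcgrt stayed negative and Syk positive in all 13 alternatives. Fcgr1 passed the threshold with library totals (log2 −0.50, adjusted p = 0.0437), at least 1 CPM in 4 libraries (−0.43, 0.0477), DESeq2 (−0.43, 0.00963), limma voom (−0.44, 0.0354) and robust edgeR (−0.44, 0.0473), and Fcgr3 with DESeq2 (−0.34, 0.0286). Fcgr2b turned to −0.05 with library totals. Without the replicate block Fcer1g lost its call (−0.43, adjusted p = 0.181) and Fcgr4 kept it (0.0376). On leaving out each mouse, log2 fold changes ran from −0.50 to −0.36 for Fcgr1, −0.07 to 0.08 for Fcgr2b (−0.07 without mouse 2, −0.05 without mouse 4), −0.43 to −0.27 for Fcgr3, −1.0 to −0.72 for Fcgr4, −0.49 to −0.39 for Fcer1g, −0.31 to −0.11 for Fcgrt and 0.13 to 0.24 for Syk. The members called lower then numbered 0, with 3 mice in each fit, against 1 without the block and 4 by DESeq2. Over all genes 147 were called higher and 71 lower without the block, 1135 and 681 by DESeq2, and 120 to 432 and 46 to 123 on leaving out a mouse. Over the companion lists 0 were called higher and 2 lower without the block, 8 and 22 by DESeq2, 2 higher with library totals, and 0 to 2 higher and 0 to 10 lower on leaving out a mouse. The activating to inhibitory ratio stayed at a mean log2 of −0.40 to −0.37 without each mouse, −0.38 without Fcgr1 and −0.38 on counts. Where a call moved, the cause was not tested. With 463 counts at the least, Fcgr4 has the least depth of the 7 genes.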
